A study of Mus musculus with 5 samples.

Results

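The comparison set 2 tumours with high Tph1 against 3 tumours with low Tph1, which together are all 5 tumours of the series. The classes were chosen by a measured value: CPM were the read count of a gene per 1000000 counts of its column, and a tumour with 100 CPM of Tph1 or more was called Tph1-high. Vehicle replicate 1 (774 CPM) and LSN replicate 2 (6046 CPM) were Tph1-high. Vehicle replicate 2 (0.688 CPM), LSN replicate 1 (3.19 CPM) and LSN replicate 3 (2.41 CPM) were Tph1-low, so the values just inside and just outside the threshold were 774 and 3.19 CPM. Each class held both treatments. Every tumour was a mouse small cell lung cancer labelled as a lung tumour, with the genotype RPP, whose letters the labels do not expand; tissue was flash-frozen at necropsy. The vehicle label is on 2 tumours and LSN on 3, and the series names an Aurora A inhibitor, which blocks a kinase that builds the spindle in mitosis. No source used here gives the dose, length of treatment, age of the mice or how the tumours were started. The design text speaks of primary cells, whereas each sample label names tumour tissue.

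Tph1 encodes tryptophan hydroxylase 1, the rate-limiting enzyme of serotonin synthesis outside the nervous system. Aromatic L-amino acid decarboxylase (Ddc) then makes serotonin, vesicular monoamine transporters (Slc18a1, Slc18a2) load it into vesicles, and monoamine oxidases break it down. Small cell lung cancer is a neuroendocrine tumour, and pulmonary neuroendocrine cells store serotonin and peptide hormones in dense-core vesicles, whose cargo includes the granins and the enzymes that cut prohormones.

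Because Tph1 set the classes, its level is a description, and it was left out of every count of genes and every median below. It stayed in the data used for scaling, the fits, the adjustment of p-values, the correlations and the principal components. The number of Tph1 reads was 13773 in Vehicle replicate 1 and 119506 in LSN replicate 2. In the Tph1-low tumours it was 12 in Vehicle replicate 2, 57 in LSN replicate 1 and 47 in LSN replicate 3. LSN replicate 2 held 7.82 times the CPM of Vehicle replicate 1, so the 2 Tph1-high tumours were themselves far apart, and there Tph1 ranked number 1 among all genes with 0.605% of all counts. The gene lies on the minus strand of chromosome 7 at 46644641 to 46672537 (mm10). Within 1 Mb on each side, 38 other genes were tested, of which 10 were higher and 4 lower in both Tph1-high tumours than in each Tph1-low tumour. Over all tested genes, 14.5% were higher and 14.3% lower in the same way. The median log2 fold change of these neighbours was 0.29, and Sergef, next to Tph1, had 17.6 and 15.2 CPM in the Tph1-high tumours against 11.6 to 13.8 CPM in the Tph1-low tumours.

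Column totals ran from 17439049 to 19766604 counts, so 3 counts, the limit that a count of 0 allows, came to 0.152 to 0.172 CPM. All 5 tumours carried neuroendocrine genes: Insm1, a neuroendocrine transcription factor, was at 445 to 822 CPM and Syp (synaptophysin) at 84.0 to 170 CPM. The tuft cell factor Pou2f3 was under 0.4 CPM in each. LSN replicate 3 was Tph1-low but lay nearer to the Tph1-high tumours. Its correlation of log2 CPM over all tested genes was 0.913 with Vehicle replicate 1 and 0.904 with LSN replicate 2, against 0.866 with Vehicle replicate 2 and 0.877 with LSN replicate 1. On the first principal component (47.7% of the variance) it had a score of -56.3, between the Tph1-high tumours at -19.6 and -105, while Vehicle replicate 2 and LSN replicate 1 were at 101 and 79.1. Ddx3y, on the Y chromosome, was at 69.4, 59.8 and 123 CPM in Vehicle replicate 1, LSN replicate 1 and LSN replicate 3 and at 0.107 CPM or less in the others, so each class held a tumour with and one without Y-linked reads. The 2 tumours without them differed in Xist, on the X chromosome. It was at 1461 CPM in Vehicle replicate 2, 38.0 CPM in LSN replicate 2 and 2.43 CPM or less in the others. Nothing in the labels says that the tumours came from separate animals, so p-values and standard errors measure the spread between these samples only.

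In what follows, CPM are scaled by the trimmed mean of M-values (TMM). Values are given in the order Vehicle replicate 1 and LSN replicate 2 for the Tph1-high class, then Vehicle replicate 2, LSN replicate 1 and LSN replicate 3 for the Tph1-low class. A fold change is the log2 of Tph1-high over Tph1-low from edgeR's quasi-likelihood fit, with its standard error, n = 2 against n = 3. In bulk tissue, fewer cells of a type and less RNA per cell cannot be told apart.

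No gene passed the test: edgeR's quasi-likelihood test called 0 of 17905 genes (0%) at a Benjamini-Hochberg adjusted p of 0.05, and the smallest adjusted p was 0.416. At an unadjusted p under 0.05 it had 823 genes higher and 939 lower. DESeq2 called 185 genes higher (1.03% of the 17991 to which it gave an adjusted p) and 263 lower (1.46%). limma-voom called 0 (1819 at an unadjusted p under 0.05). Genes are therefore described by whether the classes overlapped: 2599 genes (14.5%) had both Tph1-high tumours above every Tph1-low tumour, and 2553 (14.3%) had both below. Those shares are the background for every count of members below. As the classes came from a gene of the same libraries, the calls and counts describe this split and nothing is read from them about its cause.

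Among genes that averaged 1 CPM or more and whose classes did not overlap (predicted genes left out), Nptx2 had the smallest p. It encodes a secreted neuronal pentraxin that clusters glutamate receptors at synapses. It was at 138 and 210 CPM in the Tph1-high tumours and at 24.2, 19.4 and 20.7 CPM in the Tph1-low tumours. The Tph1-low values lay close together, and the fold change was 3.02 ± 0.26. Il20ra, a receptor subunit for cytokines of the interleukin 20 group, was at 22.7 and 34.9 CPM against 0.279, 0.221 and 0.582 CPM. It was under 1 CPM in each Tph1-low tumour and had a fold change of 6.29 ± 0.61.

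Rspo4, which encodes a secreted R-spondin that amplifies Wnt signals, was at 24.4 and 132 CPM in the Tph1-high tumours. The 3 Tph1-low tumours together held 2 counts, against 2911 in the Tph1-high pair. Counts pooled in each class and divided by its pooled TMM-scaled library size had a ratio of 2145. The exact 95% interval of that ratio, from 593 to 17720, covers counting error only. Like Tph1, Rspo4 was higher in LSN replicate 2 than in Vehicle replicate 1. With treatment as a covariate, Rspo4 was the only gene that edgeR's quasi-likelihood test called (adjusted p = 0.0486). With no filter on low counts the same test called Nptx2, Il20ra and Gm16271 (adjusted p = 0.0371 for each), the last a transcript antisense to its neighbour that cannot be told apart from it in reads without strand.

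Vgf, a granin-like precursor of secreted peptides, was at 100 and 78.7 CPM against 12.4, 13.8 and 7.25 CPM. Its fold change was 3.003 ± 0.35, and no Tph1-low tumour came near the Tph1-high pair. Gad1, which makes the inhibitory transmitter GABA from glutamate, was at 142 and 153 CPM against 6.08, 14.8 and 20.3 CPM. The Tph1-high tumours were nearly equal in Gad1 (fold change 3.43 ± 0.51) although their Tph1 differed. Ttyh1, a membrane protein of neural cells, was at 32.3 and 56.6 CPM against 1.90, 4.25 and 2.22 CPM. Pde1a, a phosphodiesterase that degrades cyclic nucleotides under calcium control, was at 25.8 and 29.5 CPM against 6.48, 4.47 and 5.72 CPM.

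Of the genes that filled the list of 10, the other 3 were Slc35f2, Upp1 and Tlk1. Slc35f2, a solute carrier, was at 6.45 and 4.66 CPM and under 0.3 CPM in each Tph1-low tumour. Upp1, uridine phosphorylase, was at 47.7 and 46.7 CPM against 13.5 to 16.9 CPM. Tlk1, a kinase of chromatin assembly, had the smallest fold change of the 10 (1.43 ± 0.21), from 141 and 190 CPM against 59.5 to 64.3 CPM.

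On the lower side, Cpne5, a calcium-binding copine, was at 11.3 and 6.70 CPM in the Tph1-high tumours against 71.5, 67.3 and 64.1 CPM. Its classes were far apart, with a fold change of -2.91 ± 0.33. Cacng5, an auxiliary subunit of AMPA-type glutamate receptors, was at 1.67 and 0.750 CPM against 21.5, 35.6 and 24.0 CPM (fold change -4.48 ± 0.58). Cbln1, a secreted organiser of synapses, was at 7.15 and 5.52 CPM against 27.4, 27 and 28.4 CPM. The Tph1-low values of Cbln1 were almost the same in all 3 tumours.

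Cdh4, which encodes R-cadherin, was at 22.9 and 16.6 CPM against 63.2, 73.9 and 77.6 CPM. Fzd3, a Wnt receptor of the planar polarity pathway, was at 24.0 and 20.8 CPM against 61.9, 71.8 and 62.7 CPM. Amer2, a regulator of Wnt signalling at the membrane, was at 18.6 and 15.5 CPM against 69.9, 101 and 61.5 CPM. Each of these 3 had all Tph1-low tumours far above the Tph1-high pair. Nt5dc2, Zfp853, Fcgr4 and Chst5 made up the rest. Fcgr4, an Fc receptor of myeloid cells, was at 5.81 and 5.25 CPM against 29.4, 47.4 and 26.3 CPM. Most myeloid marker genes also had fold changes below 0, as given with the immune lists.

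Of these 20 genes, 8 lie on chromosomes with shifts over many genes, as described at the end. They are Amer2, Fzd3 and Nt5dc2 on chromosome 14, Cbln1 and Chst5 on chromosome 8, Cacng5 and Upp1 on chromosome 11, and Il20ra on chromosome 10.

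**Figure D1:**
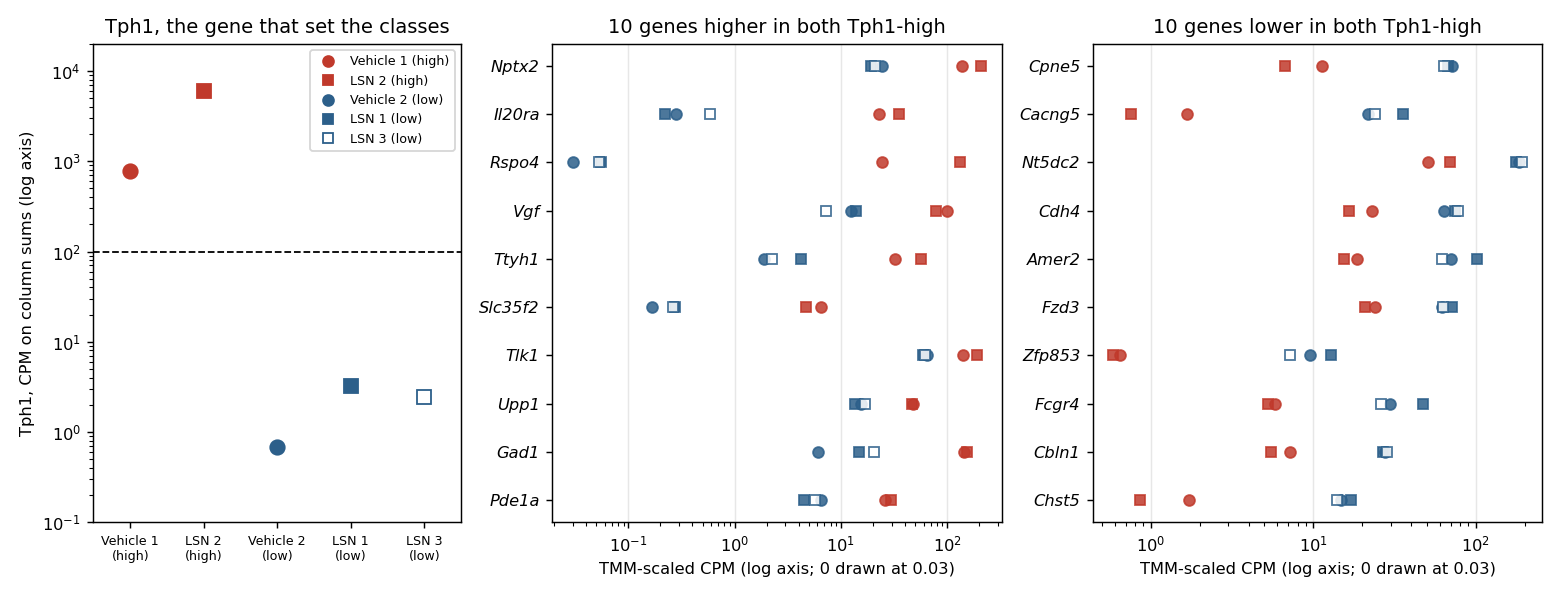
The left panel shows Tph1 in CPM on a log axis with the threshold of 100 CPM as a dashed line, 1 point for each tumour. The other panels show TMM-scaled CPM on a log axis of the 10 genes per direction with the smallest p among genes whose classes did not overlap, with red for Tph1-high and blue for Tph1-low; Nptx2, for example, lies at 138 and 210 CPM in red and at 19.4 to 24.2 CPM in blue.

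The granins and the enzymes that process prohormones leaned to the Tph1-high class. The list has 17 genes, all tested, and 15 had a fold change above 0. In 9 of them both Tph1-high tumours were above every Tph1-low tumour (against 14.5% of all genes), and in 1 both were below (14.3%). The list's median log2 fold change was 0.58, beside -0.03 over all tested genes. edgeR's quasi-likelihood test called none of them, with 6 higher and 1 lower at an unadjusted p under 0.05, and DESeq2 called 4 higher. The median was 1.07 without LSN replicate 1, the Tph1-low tumour with the most Chga and Chgb, and 0.89 without LSN replicate 3. It was lowest, at 0.41, without Vehicle replicate 2, and it was 0.90 with treatment as a covariate.

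The core vesicle cargo of the list differed by gene. Scg2 (secretogranin 2) was at 400 and 898 CPM against 79.0, 189 and 143 CPM. Chga (chromogranin A) was at 1475 and 1360 CPM against 172, 1241 and 492 CPM. Chgb (chromogranin B) was at 534.2 and 575 CPM against 156, 758 and 246 CPM. Scg2 was well apart between the classes (fold change 2.25 ± 0.49), Chga only just, since LSN replicate 1 came close to the Tph1-high pair, and Chgb overlapped because LSN replicate 1 was the highest of all.

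Among the enzymes, Pcsk1, the prohormone convertase that makes the first cuts in many hormone precursors, was at 977 and 3027 CPM against 345, 600 and 528 CPM. The fold change was 2.03 ± 0.52, and LSN replicate 2 was highest, as for Tph1 and Scg2. Pam, which puts the amide on the end of finished peptides, was at 666 and 534.3 CPM against 217, 252 and 137 CPM. Here Vehicle replicate 1 was the higher of the Tph1-high pair (fold change 1.57 ± 0.31). Cpe, which trims the cut ends, was at 498 and 462 CPM against 251, 395 and 319 CPM, while Pcsk2, the second convertase, overlapped with 163 and 116 CPM against 71.5, 78.1 and 173 CPM.

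The vesicle membrane protein Ptprn was at 260 and 282 CPM against 47.1, 134 and 44.7 CPM (fold change 1.85 ± 0.53). Its relative Ptprn2 overlapped, at 139 and 141 CPM against 32.8, 121 and 206 CPM. Cadps, a priming factor of dense-core vesicle release, went the other way, with 71.5 and 64.2 CPM against 134, 174 and 86.8 CPM. Scg3 and Scg5 were the remaining separated members, with fold changes of 0.46 ± 0.20 and 0.83 ± 0.30. Of the members that overlapped, Resp18 was at 90.2 and 207 CPM against 22.9, 94.3 and 25.8 CPM, and Baiap3 was at 3.76 and 0.911 CPM against 11.2, 39.4 and 1.54 CPM.

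RefSeq promoter windows of 250 bases before to 50 after the annotated start (GRCm38.p6) were available for 15 of the 17 granin and processing genes. The cAMP response element in its full form, TGACGTCA, which reads the same on both strands, was found in 3 of them (20%): Scg2, Chgb and Pcsk1, between 68 and 78 bases before the start. It occurred in 1.79% of all 32851 windows. The other shares count a gene once, with the element in any of its windows, so they are not on the scale of that share. By gene, it was found for 3.33% of the 12708 tested genes with a window. It was found for 82 of 1932 genes higher in both Tph1-high tumours (4.24%) and for 63 of 1792 genes lower in both (3.52%). Neither of the windows at the annotated starts of Tph1 held these letters. The sequences are shown because Scg2 and Pcsk1 were separated between the classes and Chgb, with the same element at nearly the same distance, was not; a match of letters is a description of the window. They are given from 5′ to 3′ on the strand of the gene with the element in capitals, the first 3 with the element and the last 2 at the starts of Tph1.
Scg2, chr1:79439977-79440276 (minus strand): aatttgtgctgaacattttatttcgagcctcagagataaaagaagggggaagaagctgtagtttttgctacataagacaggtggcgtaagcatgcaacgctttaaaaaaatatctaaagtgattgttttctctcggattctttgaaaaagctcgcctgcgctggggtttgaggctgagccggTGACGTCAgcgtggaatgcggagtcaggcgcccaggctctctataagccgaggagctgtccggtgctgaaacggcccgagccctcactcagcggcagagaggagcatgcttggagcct
Chgb, chr2:132781392-132781691 (plus strand): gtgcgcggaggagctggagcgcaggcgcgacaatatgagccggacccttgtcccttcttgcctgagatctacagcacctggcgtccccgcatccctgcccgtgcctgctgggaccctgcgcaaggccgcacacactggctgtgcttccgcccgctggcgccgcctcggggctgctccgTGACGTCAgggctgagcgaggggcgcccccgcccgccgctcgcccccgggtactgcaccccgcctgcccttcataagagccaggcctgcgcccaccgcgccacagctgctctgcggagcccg
Pcsk1, chr13:75089607-75089906 (plus strand): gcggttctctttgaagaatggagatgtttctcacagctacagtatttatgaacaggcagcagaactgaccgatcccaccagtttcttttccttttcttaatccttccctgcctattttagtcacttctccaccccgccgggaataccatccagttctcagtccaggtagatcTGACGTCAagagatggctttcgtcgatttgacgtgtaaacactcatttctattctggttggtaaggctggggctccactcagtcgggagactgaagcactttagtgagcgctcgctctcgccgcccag
Tph1, chr7:46672488-46672787 (minus strand): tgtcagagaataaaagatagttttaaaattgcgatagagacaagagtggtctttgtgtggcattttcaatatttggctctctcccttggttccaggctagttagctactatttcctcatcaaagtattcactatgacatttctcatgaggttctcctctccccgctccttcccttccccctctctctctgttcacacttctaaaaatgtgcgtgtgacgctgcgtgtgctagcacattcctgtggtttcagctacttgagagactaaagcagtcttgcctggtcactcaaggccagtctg
Tph1, chr7:46667328-46667627 (minus strand): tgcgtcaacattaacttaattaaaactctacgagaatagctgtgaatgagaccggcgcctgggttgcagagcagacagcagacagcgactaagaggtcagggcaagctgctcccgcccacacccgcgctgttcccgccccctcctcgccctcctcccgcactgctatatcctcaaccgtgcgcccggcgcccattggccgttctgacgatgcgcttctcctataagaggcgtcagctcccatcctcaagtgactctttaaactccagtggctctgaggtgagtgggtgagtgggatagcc

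The other genes of serotonin and monoamine handling showed no common direction. Of 31 listed, 23 were tested and 12 had a fold change above 0, with 3 higher and 2 lower in both Tph1-high tumours and a median of 0.01. The sign of that median depended on single tumours: it was 0.39 without LSN replicate 1 and -0.41 without Vehicle replicate 1. It was -0.17 without LSN replicate 2, -0.03 without LSN replicate 3, -0.07 without Vehicle replicate 2 and 0.18 with treatment as a covariate.

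Ddc was abundant in all 5 tumours, at 1291 and 1864 CPM against 581, 1648 and 1613 CPM. Slc18a1 was at 92.2 and 92.8 CPM against 2.46, 12.6 and 162 CPM. Slc18a2 was at 6.45 and 11.7 CPM against 7.15, 11.3 and 6.30 CPM. Thus the Tph1-low LSN replicate 1 and LSN replicate 3 held Ddc at the level of the Tph1-high tumours. LSN replicate 3 also held the most Slc18a1 of the series, with Tph1 at 2.41 CPM on column sums. Tph2, the neuronal form of the enzyme, was at or under 1.29 CPM in every tumour. The cell membrane serotonin transporter Slc6a4 was between 0.643 and 2.10 CPM. Th, the dopamine pathway hydroxylase, overlapped, at 22.1 and 0.214 CPM against 9.60, 205 and 39.7 CPM.

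Gch1 makes the cofactor that tryptophan hydroxylases need. It was at 108 and 195 CPM against 32.5, 39.9 and 124 CPM, so LSN replicate 3 again lay with the Tph1-high pair. Qdpr, which recycles the cofactor, was at 77.4 and 83.9 CPM against 55.2, 63.4 and 39.4 CPM. Maoa was at 20.3 and 20.7 CPM against 50.9, 61.6 and 19.3 CPM.

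Of the transcription factors of serotonin neurons, Lmx1b was separated, with 45.0 and 82.6 CPM against 25.8, 31.0 and 40.3 CPM (fold change 0.98 ± 0.35). Fev overlapped, with 23 and 5.52 CPM against 1.12, 6.02 and 14.6 CPM. Gata2 was at 9.63 and 1.66 CPM against 38.0, 40.4 and 2.12 CPM, high only in Vehicle replicate 2 and LSN replicate 1. Slc7a5, the main carrier that brings tryptophan and other large amino acids into cells, was at 43.5 and 24.1 CPM against 75.1, 60.8 and 89.1 CPM. Its partner chain Slc3a2 was also lower in both Tph1-high tumours.

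**Figure D2:**
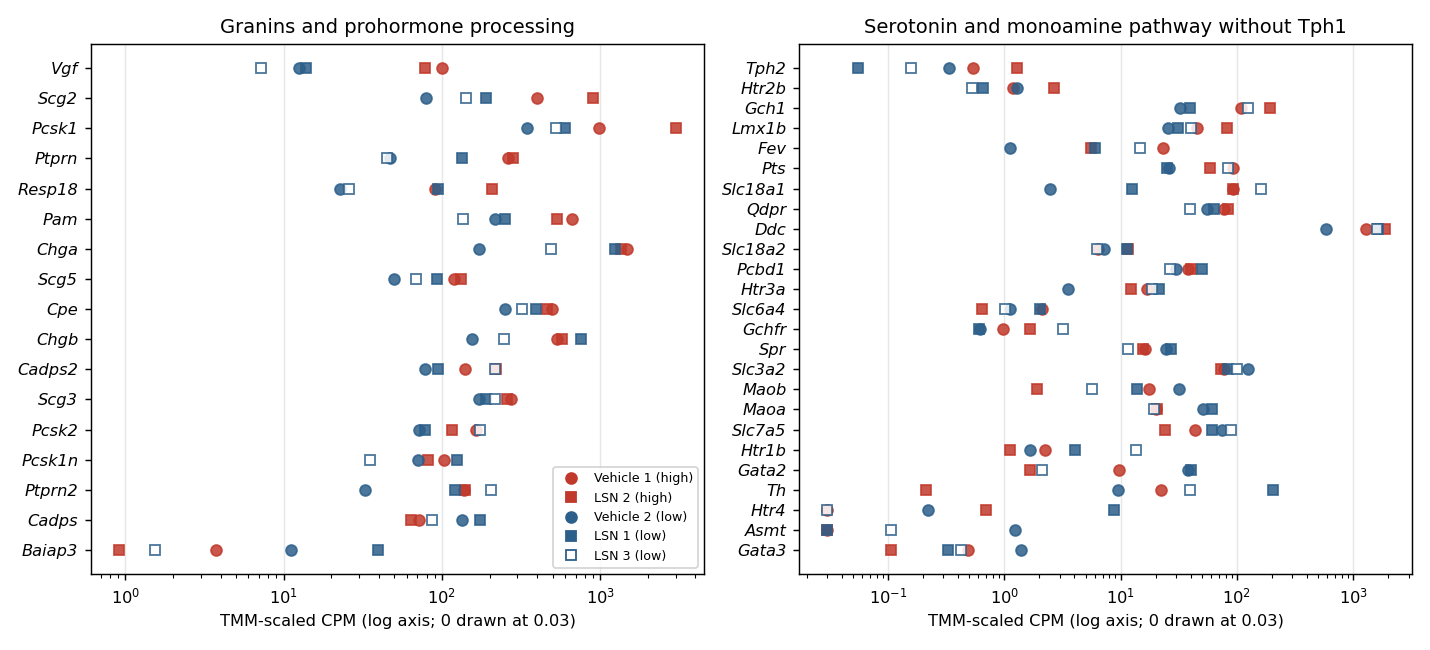
TMM-scaled CPM on a log axis of the granin and prohormone list (left) and of the serotonin and monoamine list without Tph1 (right; the 6 members under 1 CPM in every tumour are left out), 1 point for each tumour, ordered by fold change. Vgf and Scg2 have both red Tph1-high points to the right of all blue points, whereas Ddc and Slc18a1 overlap.

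Among peptide hormones, of 32 listed, 22 were tested, 5 were higher and 1 lower in both Tph1-high tumours, and the median was 0.11. It was 1.08 without LSN replicate 1, -0.56 without Vehicle replicate 1, 0.56 without LSN replicate 2, 0.38 without LSN replicate 3 and 0.29 without Vehicle replicate 2, and 0.03 with treatment as a covariate. Iapp, the islet amyloid peptide, was at 23.3 and 82.4 CPM against 0, 1.88 and 0.529 CPM. Pdyn, the dynorphin precursor, was at 101 and 151 CPM against 13.1, 4.20 and 0 CPM. Cartpt was at 15.5 and 1.61 CPM against 0, 0.497 and 0.635 CPM. Calca, the calcitonin and CGRP precursor, marks pulmonary neuroendocrine cells and overlapped, at 1573 and 358 CPM against 61.2, 257 and 698 CPM.

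Neuroendocrine and neural transcription factors did not follow the granins. Of 44 listed, 36 were tested and 12 had a fold change above 0; 1 was higher and 4 were lower in both Tph1-high tumours, with a median of -0.63 that moved to -0.07 without Vehicle replicate 2, -1.03 without Vehicle replicate 1 and -0.38 without LSN replicate 1. Insm1 was at 507 and 822 CPM against 535, 589 and 445 CPM. Neurod1 was at 37.3 and 0.429 CPM against 11.1, 0.773 and 0 CPM. Both overlapped, and Neurod1 was above 1 CPM in 1 tumour of each class.

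Hes6, a bHLH factor that promotes neuronal differentiation, was the separated member on the higher side, at 422 and 612 CPM against 113, 219 and 116 CPM (fold change 1.79 ± 0.38). Lhx2 was at 52.7 and 38.9 CPM against 134, 119 and 98.4 CPM (fold change -1.35 ± 0.26). Sox11, a factor of immature neurons, was at 295 and 96.1 CPM against 480, 404 and 510 CPM. Nkx2-1, the lung lineage factor, overlapped at 266 and 109 CPM against 479, 243 and 515 CPM.

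Other lists of neuronal and surface genes held members in both directions. Of 35 tested synaptic vesicle and exocytosis genes, 7 were higher and 5 lower in both Tph1-high tumours (median 0.31, and -0.02 without LSN replicate 2). Besides Gad1, Unc13a, which primes vesicles, was at 175 and 206 CPM against 110, 108 and 75.4 CPM. Cplx1, a clamp of vesicle fusion, was at 7.10 and 2.36 CPM against 63.4, 56.9 and 13.2 CPM. The synaptic median was 0.20 without LSN replicate 3 and 0.08 without Vehicle replicate 2.

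Of 39 tested ion channel genes, 4 were higher and 4 lower (median -0.41, and -0.13 without LSN replicate 1 or -0.70 without Vehicle replicate 1). Cacna1h, a T-type calcium channel, was at 210 and 306 CPM against 29.9, 25.4 and 119 CPM. Cacna1d, an L-type channel, was the reverse, at 10.5 and 15.4 CPM against 27.2, 39.3 and 26.3 CPM.

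Of 22 surface targets of small cell lung cancer, 2 were higher and 2 lower. Ret, a receptor tyrosine kinase of neuroendocrine cells, was at 357 and 639 CPM against 36.5, 118 and 216 CPM. L1cam, a neural adhesion molecule, was at 47.7 and 28.3 CPM against 120, 104 and 114 CPM. Ncam1, another, was at 249 and 199 CPM against 372, 379 and 346 CPM. The fold changes were 2.01 ± 0.72, -1.57 ± 0.29 and -0.70 ± 0.21, so the adhesion molecules and the receptor stood on opposite sides. Dll3, the Notch ligand used as a drug target in this cancer, overlapped, at 50.2 and 97.9 CPM against 16.8, 84.3 and 31.2 CPM.

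Of 24 Notch pathway genes, 6 were higher and 3 lower (median 0.36, and -0.05 without Vehicle replicate 1 or 0.13 without LSN replicate 1 or with treatment as a covariate). Dlk1, an atypical Notch ligand, was at 189 and 177 CPM against 0.837, 29.4 and 0.265 CPM. Dll1, a classical ligand, was at 46.5 and 58.7 CPM against 28.7, 33.8 and 34.6 CPM. Of 10 MYC family genes, Mxd4 was higher and Mxd3 and Max lower in both Tph1-high tumours. Mycl was at 56.7 and 122 CPM against 60.7, 27.2 and 141 CPM, Mycn at 15.7 and 7.77 CPM against 39.7, 51.9 and 12.6 CPM, and both overlapped.

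Epithelial genes were higher in both Tph1-high tumours than in Vehicle replicate 2 and LSN replicate 1, and LSN replicate 3 lay with the Tph1-high pair. Of 21 genes tested, 18 had a fold change above 0, 6 were higher and 0 lower in both Tph1-high tumours, and the median was 1.13. The median was 3.02 without LSN replicate 3, 0.60 without LSN replicate 1, 0.73 without Vehicle replicate 2 and 1.70 with treatment as a covariate. Krt8, a keratin of simple epithelia, was at 770 and 1186 CPM against 123, 36.5 and 753 CPM. Cdh1 (E-cadherin) overlapped, at 463 and 524 CPM against 118, 33.7 and 886 CPM. Cldn3, a tight junction claudin, had the smallest p of the 6, with 115 and 195 CPM against 36.1, 28.3 and 59.6 CPM (fold change 1.90 ± 0.40). Cldn4, another claudin of the 6, had a larger fold change of 2.57 ± 0.76. It was at 86.8 and 69.0 CPM against 11.4, 3.37 and 24.5 CPM.

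Of 28 non-neuroendocrine, YAP and mesenchymal genes, 0 were higher and 1 was lower (Cd44) in both Tph1-high tumours. Their median was -0.28, and it was 0.36 without Vehicle replicate 2, -0.52 without LSN replicate 1, -0.66 without LSN replicate 3 and -0.89 without Vehicle replicate 1. Yap1 was at 16.9 and 9.81 CPM against 30.5, 10.05 and 9.21 CPM.

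Hypoxia and glycolysis genes were mostly higher in the Tph1-high class: 19 of 20 had a fold change above 0, with 8 higher and 0 lower in both Tph1-high tumours and a median of 0.92. That median was 0.55 without LSN replicate 2. Aldoa, a glycolytic enzyme, was at 807 and 1081 CPM against 381, 223 and 410 CPM. Ldha, which makes lactate and lies within 1 Mb of Tph1, was at 789 and 999 CPM against 440, 369 and 570 CPM. Egln3, a hypoxia-induced prolyl hydroxylase, was at 70.4 and 81.0 CPM against 20.7, 23.2 and 58.4 CPM. Gapdh and Eno1 overlapped, so not all glycolytic genes took part.

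Mitotic genes were mostly lower in the Tph1-high class. Of 24 genes, 2 had a fold change above 0, 0 were higher and 10 lower in both Tph1-high tumours, and the median was -0.49. Without LSN replicate 3, which had the most Top2a, the median was -0.27. Top2a, the topoisomerase of dividing cells, was at 718 and 824 CPM against 1174, 1181 and 2209 CPM. Mki67, the usual marker of proliferation, was at 843 and 867 CPM against 1309, 1032 and 1344 CPM. The fold changes were modest, -0.98 ± 0.37 and -0.52 ± 0.23.

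Of 24 replication genes, 2 were higher and 7 lower (median -0.17). Cdt1, which licenses origins of replication, was at 58.9 and 53.2 CPM against 160, 142 and 119 CPM (fold change -1.32 ± 0.23). Cdt1 lies on chromosome 8, where 28.8% of tested genes were lower in both Tph1-high tumours, and the list without such chromosomes is given at the end. Rrm2, a subunit of ribonucleotide reductase, was at 278 and 168 CPM against 469, 424 and 718 CPM. It lies on chromosome 12, where LSN replicate 2 was low and LSN replicate 3 high over many genes. Of 15 p53 targets, Btg2 alone was separated, at 154 and 239 CPM against 60.8, 74.2 and 96.1 CPM.

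Marker genes of immune cells mostly had fold changes below 0, and the lists differed in how far the classes were separated. Of 14 T and NK cell markers, 12 were tested, 0 had a fold change above 0, and 10 were lower in both Tph1-high tumours (median -1.91, and -1.25 without LSN replicate 2). Levels were low everywhere: the summed CPM of the list was 12.4 and 5.95 in the Tph1-high tumours and 30.0, 31.3 and 22.98 in the Tph1-low tumours. Cd4 was at 3.17 and 2.47 CPM against 6.59, 11.2 and 5.61 CPM, and Cd3e was at 0.215 and 0.429 CPM against 2.40, 1.22 and 1.01 CPM.

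Of 10 tested genes of dendritic cells and MHC class II, 7 were lower in both Tph1-high tumours (median -1.21), and the summed CPM was 508 and 337 against 1373, 742 and 1169. Cd74, the invariant chain of MHC class II, was at 235 and 139 CPM against 688, 339 and 522 CPM. Of 14 macrophage and monocyte genes, 5 were lower and 0 higher (median -0.93), with summed CPM of 409 and 470 against 1700, 613 and 776. Csf1r, the receptor macrophages depend on, was at 21.1 and 33.1 CPM against 48.2, 77.9 and 40.1 CPM. Of 8 tested neutrophil genes, 3 were lower (median -1.71, and -0.98 without Vehicle replicate 2). Their summed CPM overlapped, at 149 and 6.38 against 292, 217 and 33.3, with Vehicle replicate 1 above the Tph1-low LSN replicate 3. B and plasma cell genes were not separated, with 0 of 10 in either direction.

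The part of immune cell content in the other differences was not tested. Interferon response genes had 3 of 26 higher and 1 lower in both Tph1-high tumours, and their median of 0.57 was -0.26 without LSN replicate 2, 0.35 without LSN replicate 3 and 1.05 without Vehicle replicate 1. MHC class I presentation genes had 3 of 16 higher and 1 lower, with a median of 0.61 that was 0.03 without LSN replicate 2 and 1.005 without Vehicle replicate 1. In both lists LSN replicate 2 was the highest tumour, with summed CPM of 1156 against 468 to 605 and of 6762 against 3420 to 4144 in the others.

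Mast cells also express Tph1, and platelets carry serotonin. Of 15 mast cell and basophil markers, 2 were tested and 10 were under 1 CPM in every tumour. Cpa3, the mast cell carboxypeptidase, was at 0.108 and 0.0536 CPM in the Tph1-high tumours against 0.223, 0.607 and 0.476 CPM (2 and 1 counts against 4, 11 and 9), so it was at or near the limit of detection in all. The summed CPM of the mast cell list was 4.25 and 8.47 against 8.71, 20.6 and 7.62. Of 11 platelet and megakaryocyte markers, 5 were tested and 4 had a fold change above 0 (median 0.34). In both Tph1-high tumours 1 was higher (Gp1ba) and 0 were lower. The summed CPM of the platelet list was 30.7 and 73.4 against 26.5, 28.8 and 20.9. Both Tph1-high sums were thus above every Tph1-low sum, that of Vehicle replicate 1 only just. Itgb3 made up 62.4 CPM of the sum in LSN replicate 2. Pf4 overlapped, at 1.51 and 1.77 CPM against 2.57, 1.49 and 4.66 CPM.

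Lung and stromal markers showed 1 tumour or another standing out. The summed CPM of alveolar markers was 2768 and 495 against 6980, 1552 and 1128, and that of club and secretory cells was 6441 and 6.75 against 2813, 1259 and 324. Thus Vehicle replicate 1 held the most club cell RNA and LSN replicate 2 almost none. Endothelial sums were 828 and 711 against 690, 216 and 550, so both Tph1-high tumours were above every Tph1-low tumour, LSN replicate 2 only just. Of the 12 endothelial genes, 1 (Vwf) was higher in both Tph1-high tumours and 0 lower. Vwf was at 439 and 540 CPM against 49.5, 52.4 and 425 CPM, a large part of the sums in both Tph1-high tumours and LSN replicate 3. The endothelial list had a median log2 fold change of -0.09, and its mean log2 CPM was highest in Vehicle replicate 2 (5.57). Sums of fibroblasts and smooth muscle overlapped, at 776 and 769 against 1563, 853 and 453. The part of lung tissue in the differences was not tested, and the Tph1-high pair held the highest and the lowest club cell sum of the series.

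**Figure D3:**
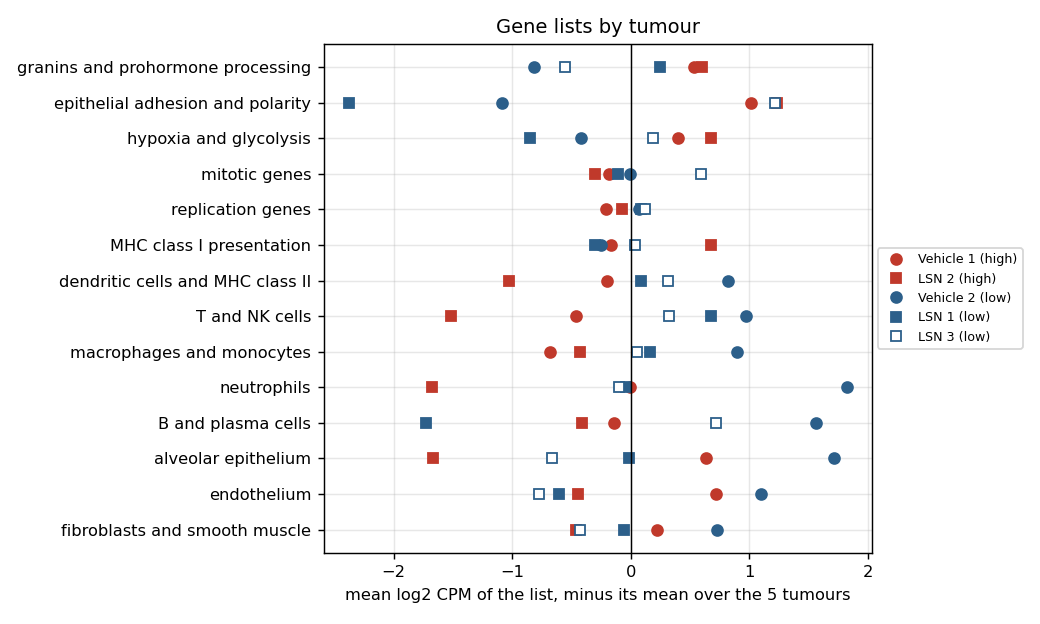
For each gene list, the mean log2 CPM of a tumour minus the mean over the 5 tumours (x axis), 1 point for each tumour, red for Tph1-high and blue for Tph1-low. Both red points lie right of all blue points for granins and hypoxia genes and left of them for T and NK cells, while LSN replicate 3 joins the red points for epithelial genes.

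Each treatment held a Tph1-high and at least 1 Tph1-low tumour, so the difference was also taken within vehicle and within LSN, which share no tumour. Across the 17905 genes, which are not independent replicates, these differences had the same sign for 63.9% of genes, with a Pearson r of 0.389. Both were above 1 on the log2 scale for 958 genes and both below -1 for 1131, while they opposed each other by more than 1 each way for 282 genes (higher in vehicle) and 195 genes (higher in LSN). The median difference of the granin list was 1.5 within vehicle and 0.63 within LSN. That of T and NK cell genes was -1.45 and -2.18, that of epithelial genes 2.19 and 2.24, and that of hypoxia genes 0.76 and 1.13. Mitotic genes had -0.22 and -0.57. Interferon genes lay on opposite sides, with -0.40 within vehicle and 1.20 within LSN, as did neuropeptides with 0.99 and -0.35.

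**Figure D4:**
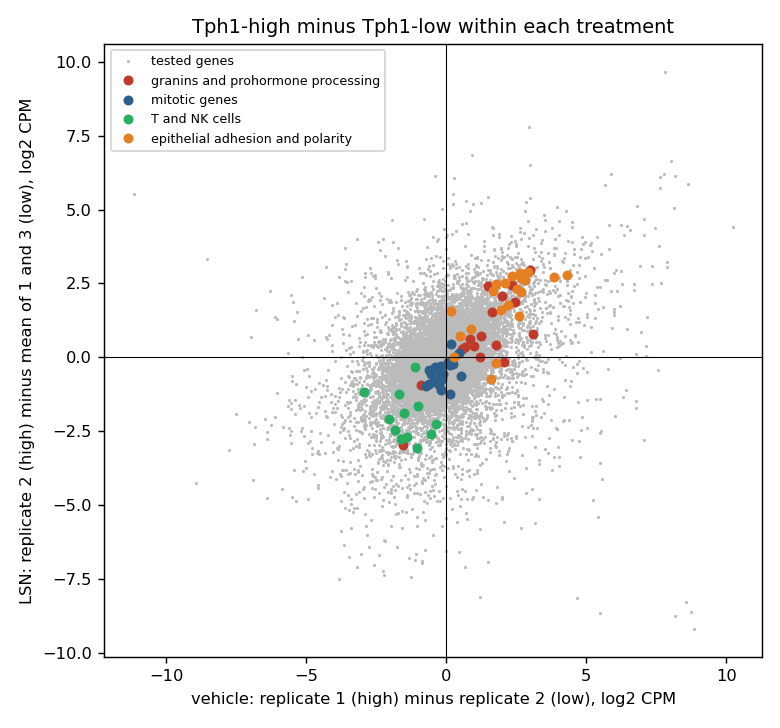
Difference in log2 CPM between the Tph1-high and the Tph1-low tumour or tumours, within vehicle (x axis) and within LSN (y axis), 1 point for each of the 17905 tested genes. Granin and epithelial genes lie mostly at the upper right and T and NK cell genes at the lower left, and 63.9% of all genes have the same sign on both axes.

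Neighbouring genes shifted together on some chromosomes. On chromosome 12, 13 of 698 tested genes were higher (1.86%) and 210 lower (30.1%) in both Tph1-high tumours, with a median log2 fold change of -0.56. The median deviation of its genes from the mean of the 5 tumours was -0.69 in LSN replicate 2, the lowest tumour, and 0.59 in LSN replicate 3, the highest; the other 3 tumours lay between 0.02 and 0.12. On chromosome 14, 40 genes were higher and 146 lower (22.9%), with Vehicle replicate 1 lowest at -0.26. On chromosome 8, 141 were higher and 264 lower (28.8%). On chromosome 11, 88 were higher and 294 lower, and on chromosome 10, 192 were higher and 59 lower. Chromosomes kept in the counts below also shifted in part. On chromosome X, 5.91% of tested genes were higher and 18.3% lower, with a median log2 fold change of -0.26. The median deviation was -0.44 in LSN replicate 2 on chromosome 18, and 0.34 and 0.32 in LSN replicate 3 on chromosomes 4 and 9.

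Without chromosomes 8, 10, 11, 12 and 14, 2125 of 13377 tested genes were higher (15.9%) and 1580 lower (11.8%) in both Tph1-high tumours, which is the background for the counts that follow. Of the 13 granin and processing genes on the other chromosomes, 7 were higher and 0 lower, with a median of 0.83. Of the 21 mitotic genes there, 9 were lower, of the 16 hypoxia genes 6 were higher, and of the 9 T and NK cell genes 8 were lower. These counts lay on the same side as those of the full lists. Of the 18 replication genes on the other chromosomes, 2 were higher and 3 lower, beside 2 and 7 of the 24 in the full list.

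**Figure D5:**
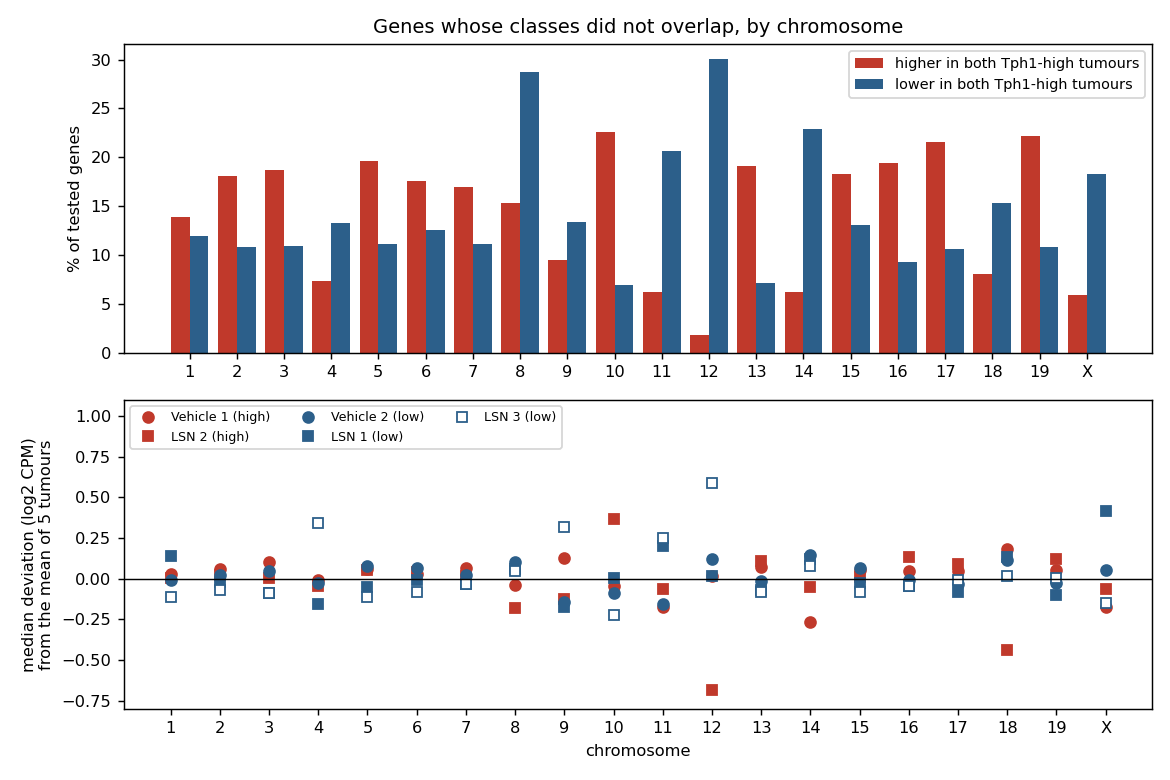
Top, the percent of tested genes on each chromosome (x axis) whose Tph1-high values were all above (red) or all below (blue) the Tph1-low values; bottom, the median deviation in log2 CPM of each tumour from the mean of the 5 tumours. Chromosome 12 has 30.1% of genes lower and 1.86% higher, with LSN replicate 2 at -0.69 and LSN replicate 3 at 0.59.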

How the data were processed

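Per the labels' protocols, total RNA of 5 mouse lung tumours was DNase-treated, made into libraries that do not keep the strand and sequenced from both ends (NovaSeq); reads were mapped to mm10 (also in the submitters' processing notes) with STAR, and differential expression was computed with DESeq2. Reads were counted per gene with a program and annotation not given in the sources used here, nor are versions. Raw counts for 54532 genes were deposited by the authors without normalization, with a gene length column that was not used. Without strand, overlapping genes cannot be told apart.

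The classes came from the Tph1 count, as the report states. The counts were scaled by TMM, filtered with filterByExpr on the 2 classes (minimum count 10, total 15) and fitted with edgeR 4.0.16 (R 4.3.3) by the quasi-likelihood test, with Tph1 left out of all counts and p-values adjusted by the Benjamini-Hochberg method. Log2 CPM used a prior count of 2. limma 3.58.1 and DESeq2 1.42.0 were alternatives, as were other scaling and filters, treatment as a covariate, and leaving out each tumour. On simulated data with 200 genes changed, the fit called 7 of 50 genes raised by 2 on the log2 scale, 1 of 50 lowered by 2, and 0 of 50 at 1 in each direction. The coefficient of variation between tumours of a class was 0.545, with 3 residual degrees of freedom. An exact binomial (Clopper-Pearson) interval was used for 1 gene of very low counts.

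The genes named were the 10 per direction with the smallest p among genes of at least 1 CPM on average whose classes did not overlap (predicted genes left out), the 2 of smallest p in each list, and a set list; other list members were named after their values were seen. The members and the 20 function and 18 marker lists were chosen with earlier results of these data known. Vehicle and LSN tumours are numbered in accession order.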

Additional observations from a re-analysis of the deposited data

How the results depend on the processing

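The edgeR quasi-likelihood test called 0 genes with TMM, with RLE scaling, with column sums alone, with a filter of 1 CPM in 2 tumours, without robust fitting, and without each tumour in turn (0 to 0 genes, with at most 2908 at an unadjusted p under 0.05, against 1762 with all tumours). It called 3 with no filter on low counts and 1 with treatment as a covariate, limma-voom called 0, and DESeq2 called 448. With 1 tumour left in a class, that tumour is assumed to vary like the others. The following alternatives were chosen after seeing the data. Another rule, a difference over 1 on the log2 scale in the same direction within each treatment whether or not the classes overlapped, gave 958 genes higher and 1131 lower. Without chromosomes 8, 10, 11, 12 and 14 the lower genes numbered 1580. Without each tumour in turn the higher genes ranged from 3354 to 5303 and the lower genes from 3319 to 5409, since fewer tumours must then be separated: 5303 and 5409 with Vehicle replicate 1 left out, 4598 and 4409 with LSN replicate 2 left out, and 4561 and 4550 with LSN replicate 3 left out. No paired analysis was possible because the tumours carry different numbers in the labels and the replicate numbers were given in accession order. At 3 counts, 0.152 to 0.172 CPM, the depth limits genes such as Cpa3 and Rspo4 in the low tumours.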

Other observations

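Transcription factors, by the family column of the deposited table, were examined after the lists. Of 1120 tested, 118 (10.5%) were higher and 202 (18.0%) lower in both Tph1-high tumours, beside 14.5% and 14.3% of all genes. The members named here were chosen after their values were seen. Mafa, a bZIP factor of insulin-producing cells, was at 30.4 and 38.1 CPM in Vehicle replicate 1 and LSN replicate 2 against 10.3, 6.41 and 10.2 CPM in Vehicle replicate 2, LSN replicate 1 and LSN replicate 3. Arntl2, a bHLH factor related to the circadian clock, was at 35.3 and 66.3 CPM against 5.36, 9.06 and 14.4 CPM. Tbx3 was at 9.14 and 88.2 CPM against 5.08, 3.04 and 2.54 CPM, and so was high only in LSN replicate 2. Foxm1, which drives mitotic genes, was at 104 and 108 CPM against 201, 180 and 224 CPM. Both Tph1-high values of Foxm1 lay below every Tph1-low value, the side on which the mitotic list also lay.

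A search for genes at 5 CPM or more in both Tph1-high tumours and under 1 CPM in every Tph1-low tumour found 7, of which 5 code for proteins: Rspo4, Il20ra, Klk1, Insl6 and Apof. Klk1, tissue kallikrein, a protease that releases kinins, was at 13.2 and 12.1 CPM against 0.0558, 0.387 and 0.847 CPM. Insl6, a peptide of the insulin and relaxin family, was at 6.67 and 7.07 CPM against 0.112, 0.497 and 0.688 CPM. The reverse pattern was found for 2 genes, Zfp853 and Slc8a3. Slc8a3, a sodium and calcium exchanger, was at 0.538 and 0.107 CPM in the Tph1-high tumours against 6.36, 6.63 and 9.79 CPM.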
